A study of Mus musculus with 12 samples.

Results

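A group of 10 genes of cyclic AMP (cAMP) signalling were followed through estrogen treatment and estrogen receptor blockade in cultured fibroblasts. They were 4 adenylyl cyclases (Adcy3, Adcy6, Adcy7 and Adcy9), 3 phosphodiesterases (Pde4b, Pde4d and Pde8a), the catalytic subunit Prkaca and the regulatory subunit Prkar1a of protein kinase A (PKA), and the transcription factor Creb1. The genes were listed by name, with earlier results of these data known, and all 10 were among the 13233 genes with normalized counts. One of them, Adcy3, fell with fulvestrant, both with and without added estradiol, and none of the other 9 passed the test in any comparison.

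Adenylyl cyclases are membrane enzymes that make cAMP from ATP when stimulatory G proteins, coupled to hormone or prostaglandin receptors, activate them. Phosphodiesterases break cAMP down again. cAMP binds the regulatory subunits of PKA and frees the catalytic subunits, which phosphorylate many proteins, among them CREB, a factor that binds cAMP response elements (CREs) in the promoters of its target genes. In fibroblasts a rise of cAMP is known to oppose activation into myofibroblasts and the making of collagen.

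The cells were primary hernia-associated fibroblasts (HAFs) from the lower abdominal muscle of Arom hum mice, which carry the human aromatase gene and so make estrogen from androgen in tissues that do so little in wild-type mice. All 12 cultures shared that genotype, and cells from wild-type mice were not analysed here. After a first passage and an overnight starvation in medium without phenol red, the cells received vehicle (V, DMSO and ethanol), 10 nM 17β-estradiol (E2; group E), 10 nM E2 after pretreatment with 100 nM fulvestrant (EF), or 100 nM fulvestrant alone (F), with 3 samples per group and RNA taken at 48 h. Fulvestrant is an estrogen receptor antagonist that also promotes loss of the receptor. Neither the age of the mice nor whether the replicates came from separate mice or cultures is given in the sources used here, so p-values measure the spread between these samples, which may in part be technical.

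Reads on the listed genes ranged from 18827792 to 44040507 per sample, with a median of 31703872. All 7 fibroblast markers examined had values, with Col1a1, Pdgfra and Esr1 among them, while 0 of 5 myogenic, 0 of 3 endothelial, 0 of 3 adipocyte and 0 of 2 epithelial markers had values to analyse. Of 4 immune markers 2 (Cd68 and Lyz2) had values, summing to between 90.7 and 389.3 normalized counts per sample, and of 3 mural markers 2 (Cspg4 and Mcam) did, summing to between 1961 and 4345. No gene with values had under 10 reads in any sample, so a gene without values may still be expressed in some samples. This applies to these markers and to the gene lists below. The 4 samples numbered replicate 1 stood apart from those numbered 2 and 3 in every group, and the first principal component, with 70.8% of the variance, followed that split. Fibroblast markers split too, in both directions. With vehicle, Thy1 had 78.3, 562 and 524.2 and Dcn 32211, 107287 and 102207 normalized counts in replicates 1, 2 and 3. Col1a1 went the other way, with 95391, 46852 and 46627. The replicate number was therefore kept as a block in each test, and values are given below by replicate number.

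Promoter sequences from the RefSeq table of build GRCm38.p6, each covering 250 bases before and 50 bases after a transcription start, were found for 9 of the 10 genes, in 21 windows. They were searched on both strands for the CRE (TGACGTCA), its core (TGACG, which lies within the CRE), the estrogen response element (ERE, GGTCANNNTGACC) and the ERE core (AGGTCA). The promoter of Adcy3 is shown because Adcy3 was the gene that changed, and a promoter of Prkar1a because it alone of the 9 genes held a full CRE; capitals mark the CRE and its core. The Adcy3 window lies at chr12:4133147-4133446 and the Prkar1a window at chr11:109650612-109650911, both on the plus strand.
Adcy3: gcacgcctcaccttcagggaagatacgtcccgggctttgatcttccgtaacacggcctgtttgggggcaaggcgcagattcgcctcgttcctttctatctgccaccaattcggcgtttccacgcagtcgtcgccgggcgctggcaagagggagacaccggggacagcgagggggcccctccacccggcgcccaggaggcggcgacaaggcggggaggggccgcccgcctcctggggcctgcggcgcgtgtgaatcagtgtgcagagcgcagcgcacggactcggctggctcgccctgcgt
Prkar1a: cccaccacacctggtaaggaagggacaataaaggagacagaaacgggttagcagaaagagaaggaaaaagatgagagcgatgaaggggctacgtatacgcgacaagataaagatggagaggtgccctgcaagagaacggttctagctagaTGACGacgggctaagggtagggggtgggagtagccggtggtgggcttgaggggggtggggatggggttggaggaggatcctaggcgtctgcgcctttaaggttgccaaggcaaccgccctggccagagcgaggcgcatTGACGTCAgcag

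The Adcy3 window held none of the 4 motifs, nor did the window of its other start, at chr12:4133903-4134202. A full CRE was present in 1.79% of all 32851 promoter windows, and 2 overlapping windows of Prkar1a held it. The CRE core, present in 20.8% of all windows, was found in a window of 6 of the 9 genes (Adcy7, Adcy9, Pde4b, Pde8a, Prkaca and Prkar1a), which made 8 of their 21 windows (38.1%). The full ERE, present in 0.07% of all windows, was found in none of the 9 genes, and the ERE core, present in 16.3%, in 4 (Adcy7, Pde4b, Pde8a and Prkar1a), or 4 of 21 windows (19.0%). Windows of a gene with several starts can overlap, so their shares are not over independent sequences. A match in these windows is a description of letters and not a binding site.

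Adcy3 encodes an adenylyl cyclase of the plasma membrane and primary cilium, best known from olfactory neurons. The gene (ENSMUSG00000020654) lies at chr12:4133103-4213525 on the plus strand of GRCm38. In the vehicle samples Adcy3 had 2414, 1693 and 1690 normalized counts in replicates 1, 2 and 3, and in the E2 samples it had 2147, 1733 and 1605. With E2 plus fulvestrant it had 1258, 1082 and 1116, and with fulvestrant alone 1432, 1071 and 1114. Every sample without fulvestrant was higher than every sample with it: the lowest of the 6 without was 1605 and the highest of the 6 with was 1432.

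Against E2 alone, E2 plus fulvestrant lowered Adcy3 by a log2 change of -0.66 (SE 0.07, 95% confidence interval -0.81 to -0.51, adjusted p = 0.000173 by limma over all genes), a fall of 36.6% that was present in 3 of 3 pairs of same-numbered samples. The log2 changes within pairs were -0.77, -0.68 and -0.52. Against vehicle, fulvestrant alone lowered it by -0.67 (SE 0.07, interval -0.82 to -0.52, adjusted p = 0.00016), with -0.75, -0.66 and -0.60 within the pairs. Among the genes called lower, these falls ranked 233rd of 612 with E2 and 268th of 753 without it. Since RNA was taken from whole cultures, fewer cells of a kind that expresses the gene and less RNA per cell cannot be told apart.

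E2 itself left no detectable change in Adcy3. The log2 change was -0.07 (SE 0.07, interval -0.22 to 0.08, adjusted p = 0.733) for E2 against vehicle, and -0.06 (interval -0.21 to 0.09, adjusted p = 1) for E2 plus fulvestrant against fulvestrant. The interaction, which asks whether the fulvestrant effect differed with and without E2, was 0.01 (SE 0.10, interval -0.20 to 0.22, adjusted p = 0.995). The study's own tables, which combine RNA-Seq with estrogen receptor binding (ChIP-Seq) and open chromatin (ATAC-seq), list Adcy3 as higher with E2 alone than when fulvestrant was added. Their RNA-Seq part comes from these same samples, so the direction of that comparison is not independent evidence. The ChIP-Seq and ATAC-seq data were not analysed here.

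The size of the Adcy3 fall rested on no single sample. It passed in each of the 15 fits that left out 1 sample or 1 replicate number, with log2 changes from -0.73 to -0.58 with E2 and from -0.71 to -0.61 without it. Without the replicate block the estimates were the same but the spread between replicate 1 and the others entered the error, and the adjusted p was 0.201 with E2 and 0.171 without it.

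**Figure D1:**
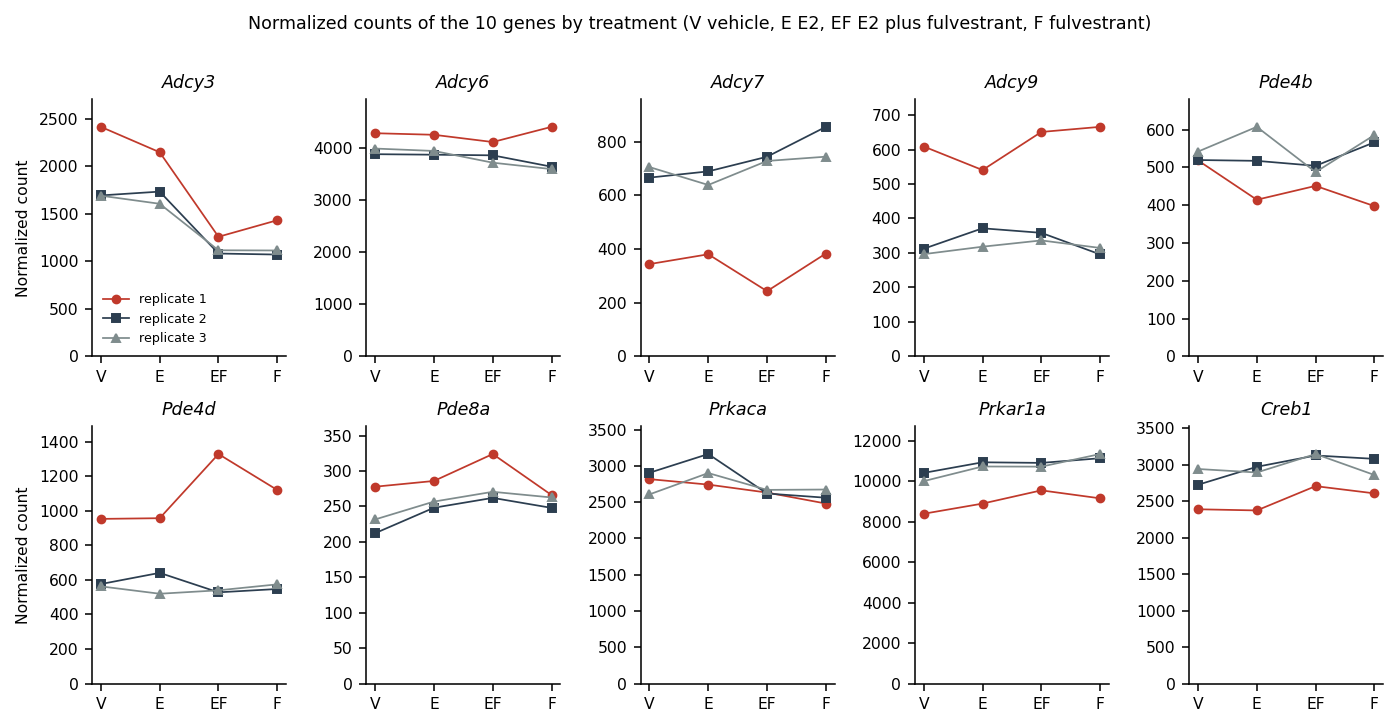
Normalized counts of the 10 genes (vertical axes from 0, one scale per gene) in the 4 groups, with 1 line per replicate number joining its 4 samples. Adcy3 drops in all 3 lines between the samples without and with fulvestrant, from at least 1605 to at most 1432, while Adcy7, Adcy9 and Pde4d differ mainly between replicate 1 and the other replicates.

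The other cyclases did not follow Adcy3. Adcy6, a cyclase inhibited by calcium and common in muscle and vessel cells, stayed between 3591 and 4401 normalized counts in all 12 samples. It had 4249, 3867 and 3939 with E2 against 4110, 3855 and 3714 with E2 plus fulvestrant, a log2 change of -0.05 (interval -0.16 to 0.07, adjusted p = 0.602). Against vehicle (4279, 3877 and 3985), fulvestrant alone (4401, 3637 and 3591) gave -0.07 (interval -0.18 to 0.04, adjusted p = 0.408). These intervals exclude a 1.2-fold change either way, and the groups overlapped.

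Adcy7, a cyclase prominent in blood and immune cells that responds to G protein beta-gamma subunits, differed more by replicate number than by treatment. Replicate 1 had 344.1 normalized counts with vehicle, 380.7 with E2, 243.2 with E2 plus fulvestrant and 383.4 with fulvestrant, whereas the other 8 samples lay between 639 and 855.6. The log2 change was -0.12 (interval -0.42 to 0.19, adjusted p = 0.638) for E2 plus fulvestrant against E2 and 0.20 (interval -0.11 to 0.50, adjusted p = 0.375) for fulvestrant against vehicle. Its largest estimate, -0.30 for E2 plus fulvestrant against fulvestrant (interval -0.60 to 0.01), had an adjusted p of 1, and replicate 1 contributed -0.65 to it against -0.20 and -0.03 in the others.

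Adcy9, a widely expressed cyclase that forskolin activates only weakly, showed the opposite split. Replicate 1 had 608.8, 540.5, 651 and 665.8 normalized counts in the vehicle, E2, E2 plus fulvestrant and fulvestrant samples, and the other 8 samples had between 295.9 and 371.6. Its log2 change was 0.10 (interval -0.13 to 0.33, adjusted p = 0.593) for E2 plus fulvestrant against E2 and 0.05 (interval -0.19 to 0.28, adjusted p = 0.815) for fulvestrant against vehicle. Both Adcy9 intervals reach past a 1.2-fold rise but not a 1.2-fold fall. For Adcy7 the interval reaches past a 1.2-fold fall with E2 and past a 1.2-fold rise without it. Changes of that size in those directions were not excluded.

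Divided by exon length, so that genes can be set side by side, Adcy6 was the most abundant of the 6 cyclases with values and Adcy3 the next. Adcy3 made up 27.3% ± 2.5 (SD, n = 3) of their summed level per kilobase with vehicle and 26.6% ± 1.7 with E2, and 18.6% ± 0.68 with E2 plus fulvestrant and 19.3% ± 0.93 with fulvestrant. The share of Adcy6 was 53.3% ± 3.5, 54.2% ± 2.5, 58.1% ± 0.54 and 57.3% ± 0.11 in the same order. These shares restate the counts and were not tested.

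The 3 phosphodiesterases among the 10 genes gave no call. Pde4b, a cAMP-specific enzyme that cAMP itself induces in many cells, lay between 397.5 and 607.1 normalized counts. Its log2 change was -0.08 (interval -0.32 to 0.17, adjusted p = 0.699) with E2 and -0.05 (interval -0.29 to 0.19, adjusted p = 0.81) without it, with pairs pointing both ways. Pde8a, a cAMP-specific enzyme of high affinity, had the lowest median count of the 10 genes, with values from 212.3 to 324. Its estimate was above 0 in all 4 comparisons, from 0.11 to 0.14, but each interval included 0 and the smallest adjusted p was 0.445.

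Pde4d, the related enzyme that associates with beta-adrenergic receptor complexes, was another gene in which replicate 1 stood apart. Replicate 1 had 952.8 normalized counts with vehicle, 956.8 with E2, 1328 with E2 plus fulvestrant and 1120 with fulvestrant, and the other 8 samples had between 519.8 and 640.6. With E2 the within-pair log2 changes were 0.47, -0.28 and 0.05, and the fitted change was 0.08 (interval -0.19 to 0.35, adjusted p = 0.71). Without E2 it was 0.06 (interval -0.21 to 0.33, adjusted p = 0.772).

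Prkaca encodes the main catalytic subunit of PKA. It had 2742, 3163 and 2901 normalized counts with E2 and 2632, 2619 and 2669 with E2 plus fulvestrant, so these groups did not overlap, and the log2 change was -0.15 (SE 0.06, interval -0.28 to -0.02). This difference did not pass after adjustment (adjusted p = 0.123). Fulvestrant alone gave 2481, 2561 and 2674 against 2817, 2905 and 2607 with vehicle, a log2 change of -0.11 (interval -0.24 to 0.02, adjusted p = 0.24).

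Prkar1a, the regulatory subunit that holds the kinase inactive until cAMP binds, had the highest level per exon length of the 10 genes. It had 8393, 10412 and 10005 normalized counts with vehicle and 9155, 11136 and 11344 with fulvestrant, higher in 3 of 3 pairs, with a log2 change of 0.13 (SE 0.05, interval 0.03 to 0.24, adjusted p = 0.0859). With E2 present the change was 0.03 (interval -0.07 to 0.14, adjusted p = 0.713). Neither passed, and the upper bounds lie below a 1.2-fold rise.

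Creb1 encodes the factor that PKA phosphorylates. It had 2373, 2971 and 2893 normalized counts with E2 and 2706, 3126 and 3146 with E2 plus fulvestrant, a log2 change of 0.13 (SE 0.05, interval 0.01 to 0.24) with 3 of 3 pairs higher and an adjusted p of 0.136. For fulvestrant alone (2607, 3080 and 2859) against vehicle (2389, 2725 and 2941) it was 0.09 (interval -0.03 to 0.20, adjusted p = 0.288). The groups overlapped in both comparisons.

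In all, 1 of the 10 genes was lower and 0 were higher with E2 plus fulvestrant than with E2, where 4.62% of all 13233 genes were called lower and 4.97% higher at an adjusted p under 0.05 and a fold over 1.2. For fulvestrant against vehicle the counts were again 1 lower and 0 higher, against 5.69% and 6.76% of all genes. Scaling by total count (CPM) in place of the authors' factors turned the latter split from 895 higher and 753 lower genes to 702 higher and 958 lower, and the former from 658 and 612 to 577 and 679. Under quantile normalization the former was 607 higher and 645 lower. Adcy3 was called lower in both comparisons under each of these scalings. A share of 1 in 10 is a single gene, close to what those backgrounds give. The median log2 change of the 10 genes was -0.01 with E2 and 0.05 without it, beside 0.01 and 0.01 for all genes. With E2 it was 0.02 without E2 replicate 3 or without E2 plus fulvestrant replicate 3. Without E2 it was 0.03 without fulvestrant replicate 3, 0.07 without fulvestrant replicate 2 and 0.01 under CPM scaling. The 2 comparisons rest on separate samples but share the replicate numbers and 1 fit.

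For E2 against vehicle, estimates of the 10 genes ran from -0.07 (Adcy3) to 0.14 (Pde8a). None passed and none had an unadjusted p under 0.05, where 0.0756% of all genes were called higher and 0% lower by limma. For E2 plus fulvestrant against fulvestrant they ran from -0.30 (Adcy7) to 0.14 (Pde8a), and none passed or had such a p, with 0% of all genes called in either direction and 255 at an unadjusted p under 0.05. The interaction gave the same count of 0 among the 10 genes, with 0% of all genes called and 501 at an unadjusted p under 0.05.

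**Figure D2:**
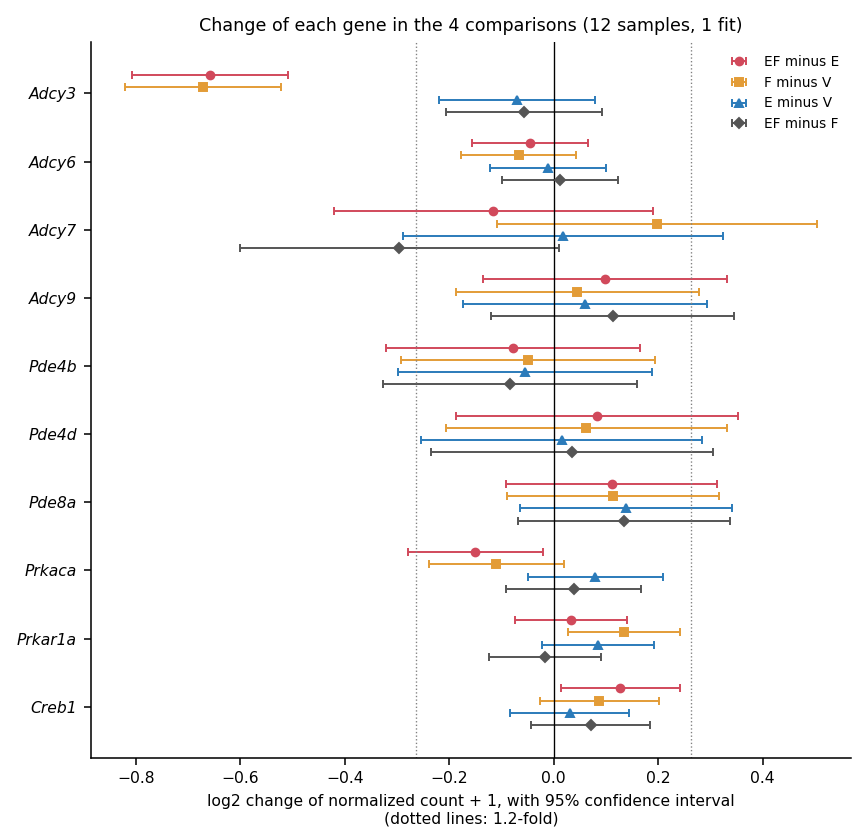
Fitted log2 change of each of the 10 genes (horizontal axis, normalized count + 1) for the 4 comparisons, with points for the estimate and bars for the 95% confidence interval from the fit to all 12 samples. Only the 2 fulvestrant comparisons of Adcy3, at -0.66 and -0.67, lie wholly past the dotted 1.2-fold lines.

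The level per kilobase of exon ordered the genes as Prkar1a (mean over 12 samples 2356), Prkaca (1098), Adcy6 (583.7), Adcy3 (244.9), Creb1 (205.1), Adcy7 (88.2), Adcy9 (81.3), Pde8a (64.8), Pde4d (61.4) and Pde4b (48.2). Ranges over the 12 samples were apart between Prkar1a and Prkaca, between Prkaca and Adcy6, between Adcy6 and Adcy3, and between Creb1 and Adcy7. Neighbours among the last 5 genes overlapped in range. Adcy3 and Creb1 overlapped too: Adcy3 had the higher level per kilobase in 6 of 6 samples without fulvestrant and in 2 of 6 with it, both of them replicate 1.

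**Figure D3:**
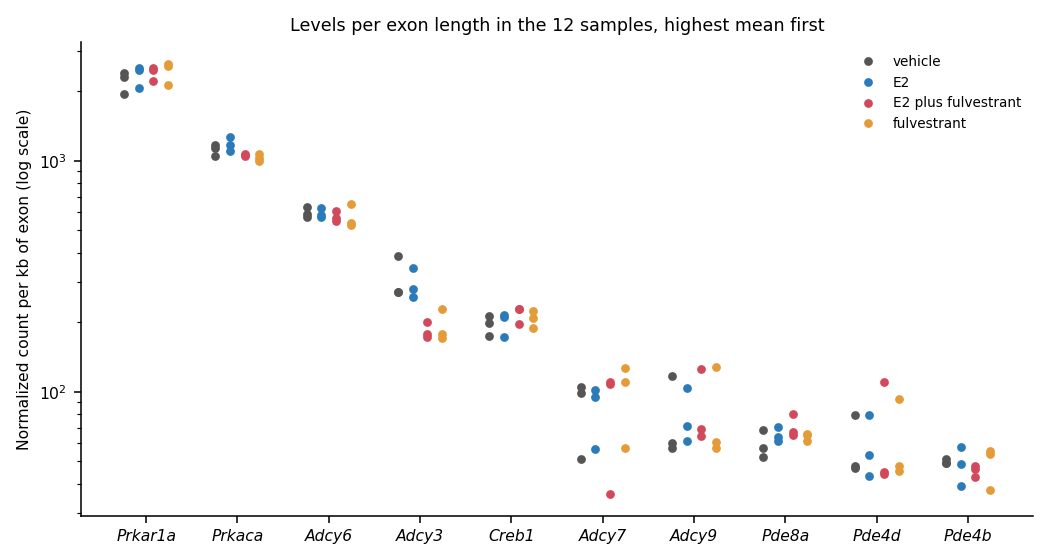
Normalized count per kilobase of exon (log axis) of the 10 genes, ordered by mean, with 1 point per sample coloured by group. Adcy3 lies between 257 and 386.5 without fulvestrant and between 171.5 and 229.2 with it, moving from above Creb1 to about its level, and the points of Adcy7, Adcy9 and Pde4d split by replicate number within each group.

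Replicate number thus set the spread of most of these genes. The log2 gap between replicate 1 and the mean of replicates 2 and 3, averaged over the 4 groups, was -1.11 for Adcy7, 0.95 for Pde4d and 0.92 for Adcy9, larger than any treatment estimate among the 10 genes. It was 0.37 for Adcy3, -0.28 for Pde4b, -0.26 for Prkar1a, -0.24 for Creb1, 0.21 for Pde8a, 0.16 for Adcy6 and -0.05 for Prkaca. Each gap had 1 sign in all 4 groups for 9 of the genes and both signs for Prkaca. Whether the number marks a culture, a mouse or a day is not given in the sources used here.

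The wider pathway was read from a list of 100 genes, of which 69 had values. With E2, fulvestrant raised 7 and lowered 7 of them, where 4.97% of all genes were called higher and 4.62% lower, and without E2 it raised 7 and lowered 4, where 6.76% and 5.69% were. The list's median log2 change was 0.07 with E2 and 0.05 without it, beside 0.01 and 0.01 over all genes. The median without E2 was 0.09 without vehicle replicate 3 and 0.01 under CPM scaling. In this fit no gene of the list passed for E2 against vehicle, for E2 plus fulvestrant against fulvestrant or for the interaction. Without the replicate block only 2 and 1 of the 69 were called. The counts with E2 became 3 higher and 6 lower without E2 plus fulvestrant replicate 1, 4 and 6 without E2 plus fulvestrant replicate 2, 11 and 6 without replicate 1 in every group, 1 and 2 without replicate 2, and 1 and 3 without replicate 3. Without E2 they became 4 and 3 without replicate 2, and 3 and 3 without replicate 3. A fit to only the 2 groups compared ended the calls with E2 of Adcy4 (adjusted p = 0.0541), Pde1c (0.0643), Pkia (0.0536) and Rgs2 (0.0509), and those without E2 of Pde1a (0.12), Pde7b (0.0694) and Junb (0.0686).

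Upstream of the cyclases, 0 of 6 receptors and 0 of 7 G protein alpha subunits passed in either comparison. Over all genes 4.97% were called higher and 4.62% lower with E2, and 6.76% and 5.69% without it. With so few genes per role, a count of 0 is close to those shares. All 6 receptor estimates were above 0 with E2 and 5 of 6 without it, with medians of 0.36 and 0.20. Single samples moved both medians: with E2 it was 0.16 without E2 plus fulvestrant replicate 1, 0.22 without E2 replicate 1 and 0.23 without E2 replicate 2, and without E2 it was -0.02 without vehicle replicate 1. Without replicate 1 in every group the medians were 0.13 and 0.09, and without E2 the median was 0.13 without replicate 2 and 0.05 over the 5 receptors with a mean of at least 100 normalized counts. The receptor nearest to a call was Adcyap1r1, the receptor of the peptide PACAP, named after its values were seen. It had 17.8, 392.4 and 342.6 normalized counts with E2 and 32.5, 646.2 and 540.5 with E2 plus fulvestrant, a log2 change of 0.74 (SE 0.22, adjusted p = 0.0515). It passed under 7 alternatives with E2, the fit to only the 2 groups compared among them (adjusted p = 0.0156), and under 2 without E2. Among the 6 cyclases, the sole call besides Adcy3 was a rise of Adcy4, a cyclase insensitive to calcium, with E2. Without replicate 1 in every group Adcy1, named after its values were seen, was also called higher with E2 (0.50, adjusted p = 0.019). Adcy4 was sparse, with 33.5, 28.2 and 57.1 normalized counts with E2 and 70.9, 83.4 and 77.4 with E2 plus fulvestrant, a log2 change of 1.01 (SE 0.24, adjusted p = 0.0205). Without E2 its change was 0.38 (adjusted p = 0.311). The call was lost without E2 replicate 2 (0.72, adjusted p = 0.0839), without E2 plus fulvestrant replicate 1 (0.90, adjusted p = 0.0969) and without E2 plus fulvestrant replicate 2 (0.94, adjusted p = 0.0923).

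Of 12 phosphodiesterases, 4 fell and 0 rose with E2, and 2 fell and 1 rose without it, beside the 4.62% lower and 4.97% higher over all genes with E2 and the 5.69% and 6.76% without it. Without replicate 2 or replicate 3 in every group, 1 fell and 0 rose in both comparisons. Without E2, 1 fell and 0 rose in the fit to only the 2 groups compared, and 1 fell and 1 rose without replicate 2 or 3 of vehicle or of fulvestrant. In the same comparison 3 fell and 1 rose without E2 replicate 1, without fulvestrant replicate 1 or without replicate 1 in every group. Pde3a, the cGMP-inhibited cAMP phosphodiesterase of heart and vessel muscle, fell in both. It had 4474, 3025 and 2618 normalized counts with E2 and 2389, 1836 and 1712 with E2 plus fulvestrant, a log2 change of -0.75 (SE 0.10, adjusted p = 0.00115). Without E2 it went from 5338, 2646 and 3079 to 2843, 1736 and 1510, a change of -0.85 (SE 0.10, adjusted p = 0.000475). The groups of the latter comparison overlapped because replicate 1 was high in both, and each of the 3 pairs fell. Pde3a passed in all 15 fits that left samples out.

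Pde8b, the closest relative of Pde8a, fell with E2. Its counts were 612.5, 1259 and 1307 with E2 and 428.4, 659.9 and 638.6 with E2 plus fulvestrant, a log2 change of -0.83 (SE 0.13, adjusted p = 0.00228). Without E2 it was -0.30 (adjusted p = 0.134). That fall passed without fulvestrant replicate 1 (-0.46, adjusted p = 0.0205) and without E2 replicate 1 (adjusted p = 0.0438). It also passed without replicate 1 of every group (-0.42, adjusted p = 0.00634). The interaction was -0.52 (SE 0.18, adjusted p = 0.944). E2 against vehicle (480.8, 720.3 and 796.8) gave 0.62 (SE 0.13, 3 of 3 pairs higher, adjusted p = 0.213), which did not pass here but did in a fit to only those 2 groups (adjusted p = 0.0397), without E2 replicate 1 (0.80, adjusted p = 0.0368) and without replicate 1 of every group (0.76, adjusted p = 0.00554). The study's tables name Pde8b among genes higher in E2 alone than when fulvestrant was added, a comparison that leaves vehicle out. Their RNA-Seq part comes from these samples, so the direction of the Pde8b fall with E2 is not independent evidence. Pde8a, by contrast, gave 0.11 in both comparisons; whether the 2 relatives differed was not tested.

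Pde1a and Pde1c, calcium- and calmodulin-stimulated enzymes, were also among those that fell. Pde1a fell by 0.47 on the log2 scale with E2 (SE 0.08, adjusted p = 0.00485) and by 0.32 without it (SE 0.08, adjusted p = 0.0257). The second of these was lost without vehicle replicate 2 (adjusted p = 0.11), vehicle replicate 3 (0.117), fulvestrant replicate 2 (0.0783) or fulvestrant replicate 3 (0.0931). Pde1c fell by 1.10 with E2 (SE 0.24, adjusted p = 0.0137) from a low level, 14.8, 77.3 and 71.4 normalized counts with E2 against 9.85, 22 and 35.1 with E2 plus fulvestrant. Its call was lost without E2 replicate 2 (adjusted p = 0.0685), E2 plus fulvestrant replicate 2 (0.076) or E2 plus fulvestrant replicate 3 (0.0565). Without E2 its change was -0.56 (adjusted p = 0.141), which did not pass. Pde7b, a cAMP-specific enzyme, rose without E2 by 0.49 (SE 0.10, adjusted p = 0.00703), from 634.1, 539.4 and 545 to 713.6, 826.6 and 869.2 normalized counts, and had a change of 0.10 with E2 (adjusted p = 0.565).

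Among 8 PKA subunits and inhibitors, 1 was called in each comparison, a different gene and in the opposite direction, beside the 4.62% of all genes called lower with E2 and the 6.76% called higher without it. Pkia, a peptide inhibitor of the catalytic subunit, fell by 0.29 with E2 (SE 0.08, adjusted p = 0.0331), a call lost without any of the 3 E2 samples or without E2 plus fulvestrant replicate 1 or 3 (adjusted p from 0.0894 to 0.155). Prkar2a, a regulatory subunit tied to anchoring proteins, rose by 0.41 without E2 (SE 0.08, adjusted p = 0.00594), from 1960, 2003 and 1970 to 2251, 2934 and 2737 normalized counts. With E2 its change was 0.22 (adjusted p = 0.094), which passed without E2 replicate 1 (0.31, adjusted p = 0.033). Rapgef3, an exchange factor that cAMP activates directly, had changes of 0.08 and -0.10 and did not pass, nor did any of the 9 anchoring proteins. Without fulvestrant replicate 1, 2 anchoring proteins (Akap2 and Akap13) were called higher with E2 and 1 (Akap2) without it, and without replicate 1 in every group Akap2 was called higher in both. Akap2, named after its values were seen, shares 84.4% of its exon bases with Pakap, so its counts are uncertain. Akap13, which the study's tables name as higher with E2 plus fulvestrant, had 9498, 12197 and 10649 normalized counts with E2 and 18600, 14311 and 13687 with E2 plus fulvestrant, a log2 change of 0.52 (SE 0.18, adjusted p = 0.0905).

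None of the 8 genes of the CREB family and its coactivators passed. Of 12 known CREB target genes, 6 rose and 1 fell with E2, and 5 rose and 1 fell without it, beside the 4.97% higher and 4.62% lower over all genes with E2 and the 6.76% and 5.69% without it. With E2, 3 rose and 1 fell without E2 replicate 1 or without E2 plus fulvestrant replicate 1, 1 rose and 0 fell without replicate 2 in every group, and 1 rose and 1 fell without replicate 3. Without E2, 3 rose and 1 fell without replicate 3 in every group. Their median log2 change was 0.48 with E2 and 0.45 without it, beside 0.01 and 0.01 over all genes. Many of these genes also answer to serum, stress or glucocorticoid, as textbook background, and PKA activity was not measured.

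Dusp1, a phosphatase of MAP kinases, had the largest rise. It had 295.9, 1555 and 1610 normalized counts with E2 and 1316, 3035 and 3052 with E2 plus fulvestrant, a log2 change of 1.34 (SE 0.27, adjusted p = 0.0097). From vehicle (196.3, 1586 and 1472) to fulvestrant (891.7, 2895 and 3135) it rose by 1.38 (SE 0.27, adjusted p = 0.00713). Replicate 1 was the low sample in every group, and each of the 3 pairs rose in both comparisons.

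Per1, a clock gene, rose from 1270, 1442 and 1575 normalized counts with E2 to 2641, 2311 and 2375 with E2 plus fulvestrant, a log2 change of 0.78 (SE 0.12, adjusted p = 0.00272). Without E2 the change was 0.75 (SE 0.12, adjusted p = 0.00285). Sik1, a kinase that restrains the CREB coactivators, rose by 0.76 with E2 (SE 0.10, adjusted p = 0.00105) and by 0.67 without it (SE 0.10, adjusted p = 0.00191), from 1261, 1522 and 1307 to 2245, 2312 and 2370 normalized counts in the first of these. The groups of both genes did not overlap in either comparison. Without the replicate block Per1 was still called in both (adjusted p = 0.0339 and 0.0414) and Sik1 with E2 (adjusted p = 0.0484).

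Rgs2, a regulator that shortens signalling by Gq and binds some cyclases, rose by 1.09 without E2 (SE 0.17, adjusted p = 0.00199), from 386, 228.8 and 225.6 to 1087, 421.6 and 418.4 normalized counts. With E2 it rose by 0.75 (SE 0.17, adjusted p = 0.0167), a call lost without E2 replicate 1 (0.57, adjusted p = 0.063) or E2 plus fulvestrant replicate 1 (0.54, adjusted p = 0.0774). Ppargc1a, the coactivator of mitochondrial genes, went the other way. It fell by 0.66 with E2 (SE 0.13, adjusted p = 0.00718) and by 0.78 without it (SE 0.13, adjusted p = 0.0024), the latter from 484.1, 178.3 and 176.1 to 285.7, 113.2 and 92.4 normalized counts. The remaining calls, Nr4a1 with E2 and Junb in both comparisons, rose by 0.41 to 0.61; these genes fell outside the rule for named genes and are given because they complete the count. Nr4a1 was lost without E2 replicate 1 or any E2 plus fulvestrant sample (adjusted p from 0.0502 to 0.0841). Without E2 the change of Nr4a1 was 0.44, which did not pass in this fit. It passed with a block of replicate 1 against 2 and 3 (adjusted p = 0.0353) and without E2 replicate 1 (0.0397). It also passed with a pseudocount of 10 (0.0498) and with the filter on the mean (0.0499). Junb was lost with E2 without any E2 or E2 plus fulvestrant sample, vehicle replicate 3 or fulvestrant replicate 2 or 3 (adjusted p from 0.0539 to 0.203), and under quantile normalization (0.0704) or CPM scaling (0.0641). Its change with E2 was 0.27 without E2 plus fulvestrant replicate 1. Without E2 it was lost when any fulvestrant sample was left out (adjusted p from 0.0543 to 0.0795). Without vehicle replicate 1 the change of Junb by fulvestrant alone was 0.27 (adjusted p = 0.0465).

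**Figure D4:**
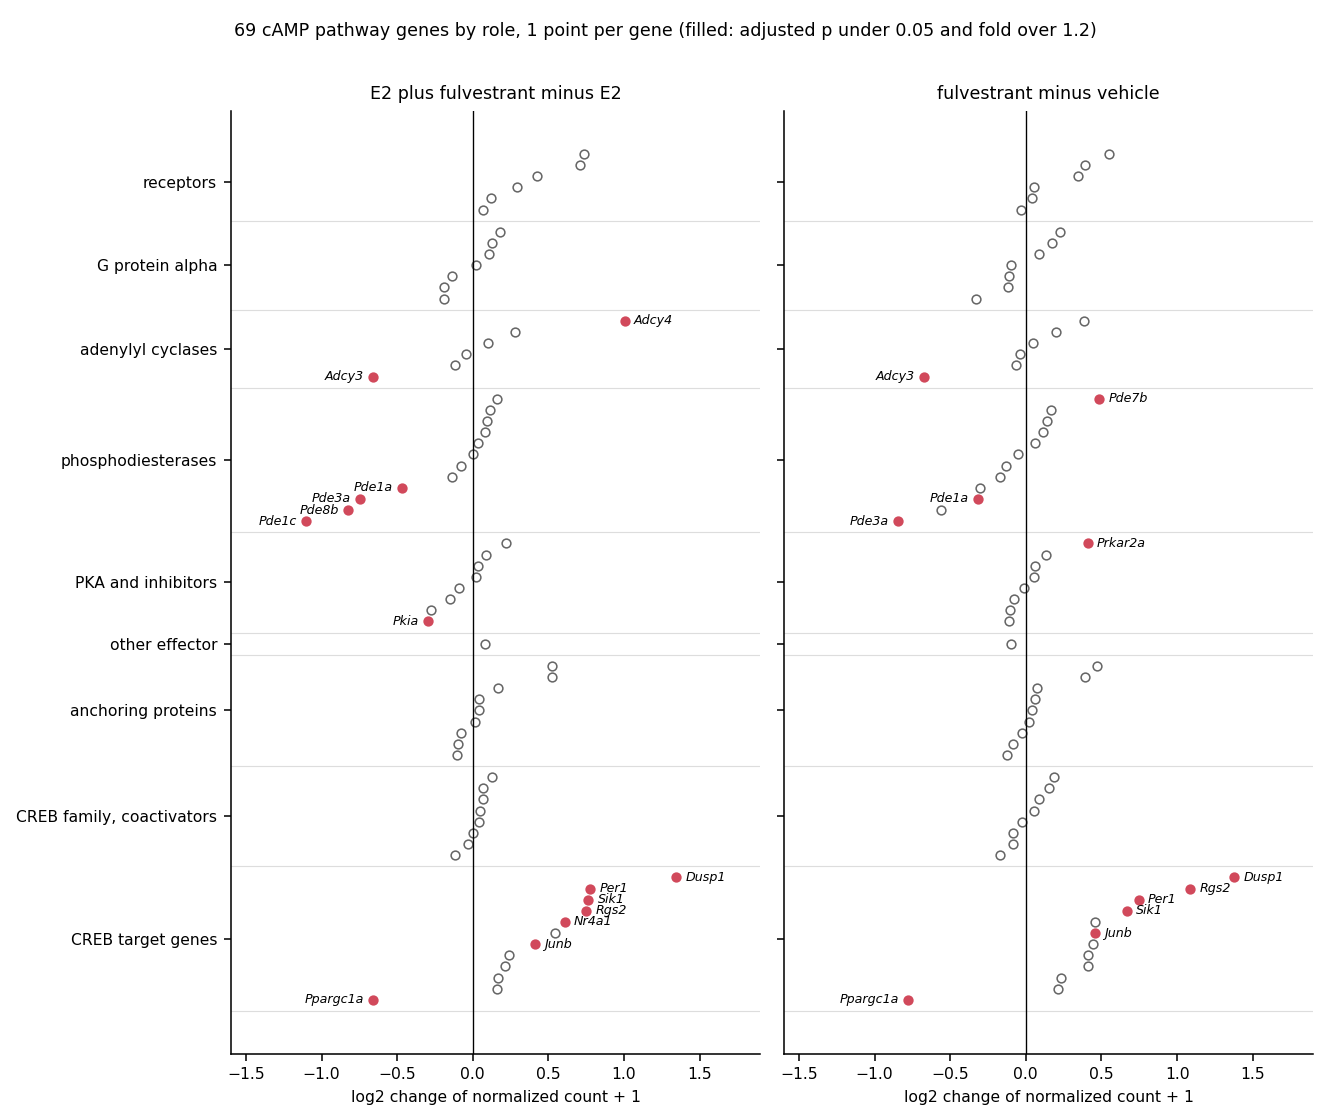
Fitted log2 change (horizontal axes, normalized count + 1) of the 69 cAMP pathway genes with values, 1 point per gene, grouped by role, for E2 plus fulvestrant against E2 (left) and fulvestrant against vehicle (right). Filled, named points passed at an adjusted p under 0.05 and a fold over 1.2; the CREB target genes lie mostly to the right of 0, with Ppargc1a to the left, and the filled phosphodiesterases lie to the left except Pde7b.

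Some fibroblast markers fell in the same comparisons, 4 of 7 with E2 and 3 of 7 without it, beside the 4.62% and 5.69% called lower over all genes. Without the replicate block 0 of 7 were called in either comparison. Over the fits that left samples out, between 2 and 6 fell with E2 and between 2 and 5 without it, with 6 and 5 without replicate 1 in every group, 2 and 2 without replicate 3, and 5 without E2 when fulvestrant replicate 1 was left out. Esr1, the gene of the estrogen receptor itself, fell by 2.26 with E2 (adjusted p = 8.23e-05) and by 1.46 without it (adjusted p = 0.000993). The matrix genes Lum and Col1a1 fell in both and Col1a2 with E2. The call of Col1a2 was lost without E2 replicate 2 or 3 or any E2 plus fulvestrant sample, and that of Col1a1 by fulvestrant alone without fulvestrant replicate 2. Both of these calls were also lost in the fit to only the 2 groups compared. The others did not pass, with log2 estimates for Pdgfra of -0.20 (adjusted p = 0.218) and -0.26 (0.0978), for Dcn of -0.42 (0.0637) and -0.34 (0.105), and for Thy1 of -0.41 (0.26) and -0.40 (0.251), with and without E2. The 7 markers summed to between 307728 and 398611 normalized counts with vehicle, 341057 and 430654 with E2, 244686 and 303235 with E2 plus fulvestrant, and 229671 and 329742 with fulvestrant. The summed mural markers lay between 2154 and 3285 with vehicle, 2214 and 3382 with E2, 2028 and 4345 with E2 plus fulvestrant, and 1961 and 4235 with fulvestrant, and the summed immune markers between 160.7 and 389.3, 90.7 and 361, 131.1 and 188.1, and 136.2 and 171.6. Their part in the fall of Adcy3 was not tested.

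As a description of pattern, the 5 genes most like Adcy3 over the 12 samples, after the mean of each replicate number was taken off, were Gas2 (Pearson's r = 0.994), Maged1 (0.993), Sfrp1 (0.992), Mmp16 (0.991) and Ltbp3 (0.991). These were the highest of 13153 other genes with a symbol, and they are given with no test. Within the cAMP list the highest were Pde3a (0.98) and Ppargc1a (0.976), and the highest of the other 9 genes was Prkaca (0.727). Gas2 fell by 1.29 with E2 and by 1.43 without it, and Ltbp3 by 0.30 and 0.29.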

How the data were processed

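RNA-Seq was measured in 12 samples of 4 groups, assigned from the submitters' sample labels. Per the labels and the study's methods, the authors trimmed reads with Trimmomatic 0.39, aligned them to mm10 with STAR 2.5.2, counted genes by strand with HTSeq 0.13.5, removed counts under 10 and scaled samples by DESeq2 1.37's median of ratios. Each deposited value is a signal, the normalized count: the authors' read count over 1 factor for each sample. Values still separated by replicate number, so the batch adjustment the study describes is not visible in them. The 4 samples of each replicate number deviated together from their group means (18 pairs, r from 0.631 to 0.923). Replicate 1 stood apart in every group, which by itself raises r for all numbers. Whether replicates 2 and 3 match across groups was therefore not established, and pairs here are pairs by number.

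Symbols and positions came from GENCODE M21 (GRCm38, the mm10 build). Of 13233 genes, 13154 had a symbol. log2(normalized count + 1) was fitted with limma 3.58.1 in R 4.3.3 (eBayes with a variance trend) on all 12 samples, with group and replicate number as terms and 6 residual degrees of freedom. Fold changes are on that log2 scale and understate changes of low genes. The Benjamini-Hochberg adjustment covered all genes. Calls needed an adjusted p under 0.05 and a fold over 1.2, the study's thresholds. The fit was also run on simulated counts. Their means were set by replicate number, so that run cannot show whether the replicate block is appropriate. Intervals are 95% confidence intervals from the fit. Level per kilobase is the normalized count divided by the summed length of merged exons.

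All 10 genes were described in every comparison; of the wider list, the 3 largest calls in each direction per role were named, and the 5 genes most correlated with Adcy3. The members and lists were chosen with earlier results of these data known. Alternatives were another pseudocount, a filter on the mean, other scalings, other blocks, only the 2 groups compared, and leaving samples out. Tables were handled in Python 3.11.15 with pandas 2.3.3.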

Additional observations from a re-analysis of the deposited data

How the results depend on the processing

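Adcy3 kept its fall and its call in both fulvestrant comparisons under 22 of 23 alternatives. Without the replicate block, the differences between replicate numbers stay in the error. In that fit 0 of the 10 genes were called in either comparison. The genes called fell from 1270 to 69 (with E2), from 1648 to 72 (without E2) and from 10 to 1 (E2 against vehicle). A block of replicate 1 against 2 and 3 gave 17 calls for E2 against vehicle, and fits to only the 2 groups compared gave 57 there and 692 for fulvestrant against vehicle. Apart from the fewer samples in those fits, the causes of these moves were not tested. The tests on read counts planned as alternatives were not run.

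Leaving out samples moved the genes called between 316 and 1611 (fulvestrant with E2), 399 and 2312 (without E2), 0 and 59 (E2 against vehicle), 0 and 4 (E2 with fulvestrant) and 0 and 11 (interaction). The lowest of the first 2 came without replicate 3, as a block of 4 samples, and the highest of all 5 without replicate 1. Single samples whose loss moved the first count by over 1.5 times were E2 replicates 2 (840) and 3 (779) and E2 plus fulvestrant replicates 1 (772), 2 (788) and 3 (816), and for the second vehicle replicate 3 (1088) and fulvestrant replicates 2 (1082) and 3 (1048); for E2 against vehicle they were E2 replicates 2 (4) and 3 (2) and fulvestrant replicate 1 (18). Without replicate 2 or 3, the calls of Adcy4, Pde1a, Pde1c, Pde7b, Pde8b, Prkar2a, Pkia, Rgs2, Nr4a1, Junb, Dusp1, Ppargc1a, Per1 and Sik1 were lost in at least 1 comparison (adjusted p from 0.053 to 0.239).

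Over all 5 comparisons, 96 of 1140 values of the 10 genes under alternatives changed sign, none of them called: 91 with samples left out and 5 under other scalings, the latter at most 0.022 in size. Of 597 values for the changes given singly in the text, 25 changed sign, all with samples left out. The log2 changes so affected ranged from -0.27 to 0.15 for Adcy7, -0.021 to 0.21 for Adcy9, -0.18 to 0.043 for Pde4b, -0.11 to 0.26 for Pde4d and -0.0035 to 0.052 for Prkar1a with E2, from -0.045 to 0.15 for Adcy9, -0.14 to 0.12 for Pde4b and -0.027 to 0.13 for Pde4d without it, and for Adcy3 from -0.11 to 0.019 for E2 with fulvestrant and -0.053 to 0.089 for the interaction. With 3 samples per group and 6 residual degrees of freedom, small changes of Pde8a, Pde4b, Pde4d, Adcy7 and Adcy9 could not be resolved.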
